A study of Homo sapiens with 12 samples.

Results

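The 33 genes described here act in homologous recombination and in the Fanconi anemia pathway. They were chosen by name, as a module of known DNA repair genes, and not by a measured value. Earlier results of these data were known when the list was made. All 33 were found among the 20263 genes of both expression tables, and all 33 passed the filter on low values in both lines, a mean of at least 1 TPM over a line's 6 libraries. TPM is a gene's share of a library's transcripts, corrected for transcript length and scaled to a fixed total.

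RNA was sequenced from 12 libraries of 2 human colorectal cancer cell lines in 4 groups of 3. HCT116 cells carried either an empty vector (vector) or an overexpression construct of CKAP2L (CKAP2L), and RKO cells carried either a negative control (NC) or a short hairpin RNA against CKAP2L (shCKAP2L). CKAP2L encodes a microtubule-associated protein of the mitotic spindle. The groups were read from the library titles, because the genotype entries for shCKAP2L replicates 2 and 3 of RKO carry different gene symbols. The promoter of the construct, the hairpin sequence, whether a group is 1 clone or a pool, and whether replicates are separate cultures are not stated in the labels. A p-value here thus reflects the spread of these libraries alone, and that spread may be technical.

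CKAP2L itself followed the labels. It was at 14.2, 12.8 and 15.2 TPM in HCT116 vector and at 231, 231 and 219 TPM in HCT116 CKAP2L, a log2 fold change of 3.93 (SE 0.053, adjusted p = 1.41e-15). In RKO it was at 24.9, 24.0 and 25.8 TPM in NC and at 7.59, 7.82 and 8.56 TPM in shCKAP2L, a log2 fold change of -1.53 (SE 0.048, adjusted p = 1.21e-12). Here and throughout, a fold change is the difference of mean log2(TPM + 1), which is smaller than the true change for genes at low levels. Adjusted p-values are from limma, two-sided, with Benjamini-Hochberg adjustment over all genes tested in that line. A gene is said to have risen or fallen where the adjusted p was under 0.05. How many reads lie behind a value is unknown, since TPM keeps no depth.

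Homologous recombination repairs a broken chromosome by copying the intact sister. The MRE11-RAD50-NBN complex senses the break and starts resection with CtIP (encoded by RBBP8), BRCA1-BARD1 and PALB2 bring BRCA2 to the resected end, and BRCA2 prepares that end for strand exchange with the sister. The paralogs RAD51B, RAD51C, RAD51D, XRCC2 and XRCC3 assist this step, and RAD54 motors and helicases carry strand exchange forward and take its products apart. The Fanconi anemia pathway deals with crosslinks between DNA strands at stalled replication forks: a nuclear core complex with the ligase FANCL and the conjugating enzyme UBE2T attaches ubiquitin to FANCD2 and FANCI. Many of these genes are transcribed mainly in cycling cells, and inherited defects in several of them predispose to cancer.

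The promoters of BRIP1, UBE2T and FANCG are shown because these were the members with the largest decreases in RKO among those with a RefSeq promoter entry. They were chosen after their values were seen, since the promoter rule written earlier selected no member. Sequences are from RefSeq (GRCh38.p14), 5′ to 3′ on the gene's strand. The BRIP1 stretch ends at the base before the RefSeq transcription start. For UBE2T and FANCG the last 44 and 74 bases before that start are left out, because the GENCODE 29 gene begins there. Capitals mark the searched letters TTTGAA (CHR, an element of G2/M promoters) and CCAAT (the CCAAT box), which read TTCAAA and ATTGG where they lie on the opposite strand. BRIP1 lies at chr17:61681266-61863521, UBE2T at chr1:202331657-202341980 and FANCG at chr9:35073835-35080016, all on the minus strand. The printed stretches are chr17:61863529-61863778, chr1:202341981-202342186 and chr9:35080017-35080192, also on the minus strand.
BRIP1: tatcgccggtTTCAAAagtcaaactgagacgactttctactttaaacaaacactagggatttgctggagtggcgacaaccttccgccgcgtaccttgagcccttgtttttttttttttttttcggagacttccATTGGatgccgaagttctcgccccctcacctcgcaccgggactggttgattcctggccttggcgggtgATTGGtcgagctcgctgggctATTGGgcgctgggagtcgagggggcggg
UBE2T: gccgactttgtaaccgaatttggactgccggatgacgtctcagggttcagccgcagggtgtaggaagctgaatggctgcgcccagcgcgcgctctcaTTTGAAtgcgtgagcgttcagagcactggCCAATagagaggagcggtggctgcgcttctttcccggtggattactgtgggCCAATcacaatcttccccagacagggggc
FANCG: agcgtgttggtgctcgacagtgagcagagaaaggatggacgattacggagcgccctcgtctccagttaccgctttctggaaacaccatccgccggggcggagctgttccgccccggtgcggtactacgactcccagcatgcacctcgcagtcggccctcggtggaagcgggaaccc

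BRIP1 held TTTGAA on the opposite strand at 240 to 235 bases before the start, and CCAAT on the opposite strand at 117 to 113, 49 to 45 and 28 to 24 bases before it. UBE2T held TTTGAA at 153 to 148 bases and CCAAT at 124 to 120 and 73 to 69 bases before the start, on its own strand. FANCG held neither in its 250 bases. None of these promoters held the searched E2F strings TTTCCCGC, TTTGGCGC or TTTCGCGC. RefSeq promoter entries matched 30 of the 33 members. NBN, RAD54B and FANCI had no entry. Within 250 bases before a start, on either strand, CCAAT was found in 15 of these 30 members (50%) and in 37% of 27305 genes, TTTGAA in 4 members (13.3%) and in 16.1% of genes, and an E2F string in 1 member, FANCC (3.33%), and in 2.85% of genes. Singly, TTTCCCGC was in 1.7%, TTTGGCGC in 0.681% and TTTCGCGC in 0.542% of genes. Of the 20 members with an entry that fell in RKO, 12 held CCAAT and 3 held TTTGAA, and of the other 10 members, 3 held CCAAT and 1 held TTTGAA. A match to these letters is a description of the window and not a bound site.

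The members covered a wide range of levels, and their order was alike in both control groups. UBE2T was the most abundant member and FANCI the next in all 4 groups. UBE2T averaged 131 ± 3.4 TPM (SD, n = 3) in HCT116 vector and 162 ± 6.2 TPM in RKO NC, and FANCI 49.98 ± 2.0 TPM and 74.0 ± 1.0 TPM. In HCT116 vector, FANCG (39.2 TPM), FANCA (36.0 TPM) and RBBP8 (34.4 TPM) followed, each overlapping its neighbour in the order. In RKO NC, FANCG (62.5 TPM), NBN (56.9 TPM), RAD51AP1 (44.2 TPM) and XRCC2 (40.5 TPM) followed, and none of these 4 overlapped its neighbour.

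At the low end, HCT116 vector had RAD54B (2.12 TPM), RAD50 (2.40 TPM), RAD51B (2.78 TPM) and FANCM (3.10 TPM). RAD54B overlapped RAD50 and RAD51B overlapped FANCM, while every RAD50 library lay below every RAD51B library. RKO NC had RAD50 alone at the bottom (1.35 TPM), below RAD51B (4.94 TPM), FANCB (5.56 TPM) and RAD54B (5.66 TPM), and the last 3 overlapped between neighbours. Under 5 TPM were 8 members in HCT116 vector, 7 in HCT116 CKAP2L, and 2 in each RKO group. The median level over the 33 members was 15.5 TPM in HCT116 vector and 15.5 TPM in RKO NC. Across the 33 genes, Spearman's rho between the HCT116 vector and RKO NC means was 0.892. This is a description across genes of the same tables, which share base composition and gene length. Replicates lay close together, with a median coefficient of variation over the members of 5.06% in HCT116 vector, 3.73% in HCT116 CKAP2L, 4.22% in RKO NC and 2.93% in RKO shCKAP2L.

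**Figure D1:**
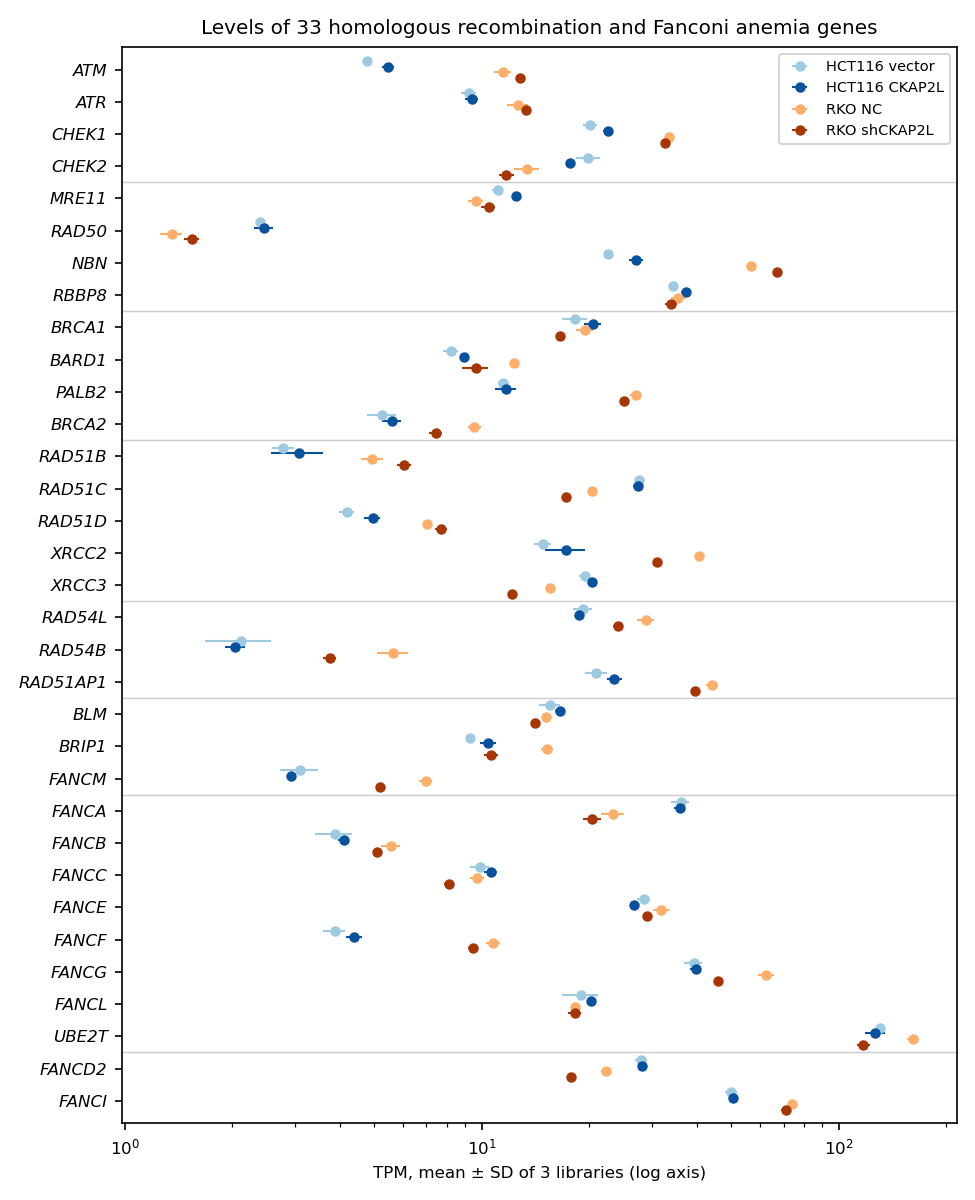
Level of each of the 33 genes in TPM (log axis) as the mean and SD of 3 libraries in each of the 4 groups, with lines between roles. UBE2T (131 TPM in HCT116 vector, 162 TPM in RKO NC) lies farthest right and RAD50 and RAD54B farthest left, and the RKO shCKAP2L point lies left of the RKO NC point for 26 of the 33 genes.

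Levels differed between the lines before any change in CKAP2L. The lines have separate tables, so these differences were not tested and are given as ratios of mean TPM. In 21 members every RKO NC library was above every HCT116 vector library, and in 7 every one was below, while 5 members (RBBP8, BRCA1, BLM, FANCC and FANCL) overlapped. The same count was not made over all genes, so whether the members stand out in it is unknown. Mitochondrially encoded genes held 28.0 to 28.6% of TPM in HCT116 vector and 20.4 to 22.5% in RKO NC. The ratios make no allowance for that. The largest ratios of RKO NC to HCT116 vector were those of FANCF (2.78), XRCC2 (2.73), RAD54B (2.66) and NBN (2.52). The lowest were those of RAD50 (0.564), FANCA (0.646) and CHEK2 (0.674). NBN and RAD50 encode partners of 1 complex and stood at opposite ends of this comparison. The labelled colorectal cell type was only partly borne out by markers, of which 6 of 10 passed the filter in HCT116 and 4 of 10 in RKO. EPCAM and KRT8 averaged 284 and 1758 TPM in HCT116 vector but 15.9 and 24.5 TPM in RKO NC, CDX2 was at 12.9 and 13.1 TPM, and CDH1 was at 131 TPM in HCT116 vector and listed at 0 in RKO NC. VIL1 and CDX1 were near or at 0 in both lines. CD68, listed as an immune marker, averaged 1042 TPM in RKO NC against 31.3 TPM in HCT116 vector. The leukocyte marker PTPRC and the T cell marker CD3E were near 0 in HCT116 and listed at 0 in RKO. The fibroblast marker COL1A1 averaged 41.4 TPM in HCT116 vector, with the other 6 fibroblast markers and all 5 endothelial markers under 1 TPM on average in all groups.

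CKAP2L knockdown in RKO was accompanied by lower levels of most of the module. Of the 33 members, 21 fell (63.6%), 4 rose (12.1%) and 8 did not pass the test. RKO differed widely: 68.5% of 11442 tested genes were called, 42.1% as lower and 26.4% as higher, and each count of members is read against these shares. The median log2 fold change of the members was -0.17 against -0.05 over all tested genes, and single members ran from -0.49 to 0.25. The summed TPM of the 33 genes was 845 to 880 in NC and 751 to 759 in shCKAP2L. In 28 members (84.8%) no NC library overlapped a shCKAP2L library, against 71.4% of all tested genes. The split depended on the scaling. Under median-of-ratios rescaling 18 members fell and 6 rose while all tested genes split into 3998 lower and 3987 higher, against 4819 lower and 3019 higher as deposited. In these bulk samples, fewer cells expressing a gene and less RNA per cell cannot be told apart.

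**Figure D2:**
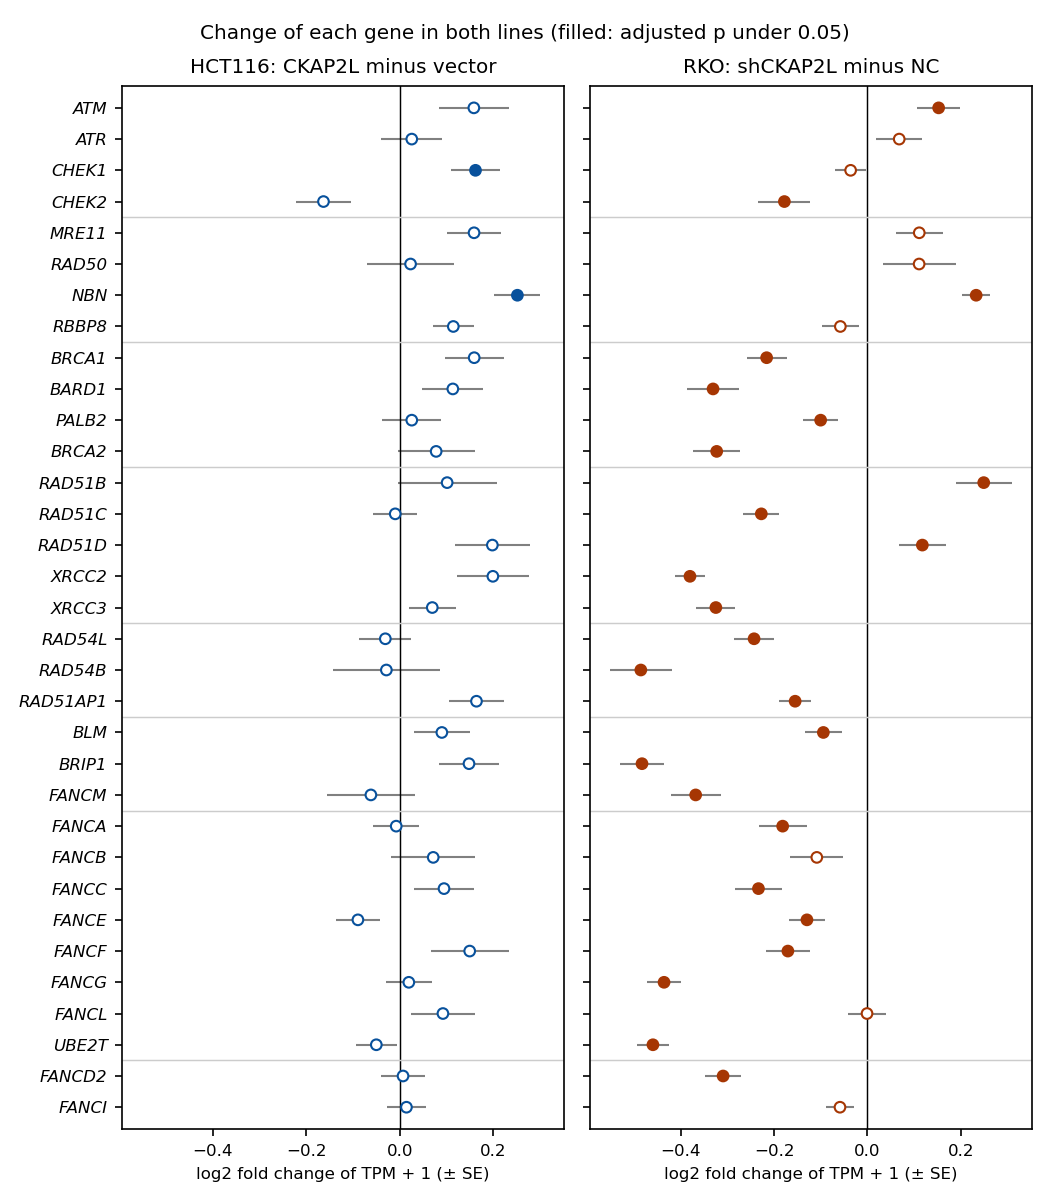
Log2 fold change of TPM + 1 with its SE for each of the 33 genes, CKAP2L against vector in HCT116 and shCKAP2L against NC in RKO, with filled points where the adjusted p was under 0.05. In HCT116 the values lie between -0.16 and 0.25 with 2 filled points, and in RKO between -0.49 and 0.25 with 25 filled points.

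The Fanconi core complex and its conjugating enzyme held several of the larger decreases in RKO: 6 of its 8 genes fell and none rose. UBE2T, the E2 enzyme that passes ubiquitin to FANCD2, was at 157, 169 and 159 TPM in NC and at 122, 112 and 117 TPM in shCKAP2L. Its log2 fold change was -0.46 (SE 0.034, adjusted p = 1.25e-08). All 3 knockdown libraries lay below all 3 controls, and mean TPM changed by -27.4%.

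FANCG, a scaffold subunit that pairs with FANCA, was at 63.7, 65.0 and 59.0 TPM in NC and at 45.9, 46.6 and 45.4 TPM in shCKAP2L, with a log2 fold change of -0.44 (SE 0.036, adjusted p = 3.72e-08). Its groups did not overlap. FANCC (-0.23, adjusted p = 0.000637), FANCA (-0.18, adjusted p = 0.00548), FANCF (-0.17, adjusted p = 0.00528) and FANCE (-0.13, adjusted p = 0.00741) fell by less, and the FANCE call was lost under quantile scaling (-0.07, adjusted p = 0.0676). FANCC, FANCE and FANCF form 1 subcomplex, and their group means went from 9.70 to 8.10, from 31.8 to 28.95 and from 10.8 to 9.45 TPM. FANCA was the only called member whose groups overlapped, with 24.1, 24.4 and 21.4 TPM in NC and 19.5, 21.7 and 20.1 TPM in shCKAP2L. The ligase FANCL (18.2 and 18.2 TPM, adjusted p = 0.987) and FANCB (5.56 and 5.08 TPM, adjusted p = 0.104), which sit together in the catalytic subcomplex, did not pass the test.

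FANCD2, a substrate of the core complex, fell, and its partner FANCI did not pass the test. FANCD2 was at 22.9, 22.4 and 21.6 TPM in NC and at 17.7, 17.8 and 17.9 TPM in shCKAP2L, a log2 fold change of -0.31 (SE 0.038, adjusted p = 3.04e-06). Its groups did not overlap. FANCI, which forms a DNA clamp with FANCD2, averaged 74.0 and 71.1 TPM, with a log2 fold change of -0.06 that missed the threshold (SE 0.030, adjusted p = 0.0928). Whether FANCD2 and FANCI differed from each other was not tested.

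The helicases fell, all 3 of them. BRIP1, a BRCA1-bound helicase also known as FANCJ, was at 15.6, 15.6 and 14.6 TPM in NC and at 10.2, 11.1 and 10.5 TPM in shCKAP2L, a log2 fold change of -0.48 (SE 0.047, adjusted p = 2.29e-07). FANCM, the translocase that anchors the core complex on DNA, was at 6.83, 7.31 and 6.79 TPM in NC and at 5.09, 5.17 and 5.28 TPM in shCKAP2L, a log2 fold change of -0.37 (SE 0.053, adjusted p = 1.81e-05). Neither gene's groups overlapped. BLM, which helps dissolve joined recombination intermediates, went from 15.2 to 14.1 TPM on average, and its adjusted p of 0.0463 lay just inside the threshold. BLM passed in 6 of 15 alternative settings.

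All 4 genes of the BRCA1 and BRCA2 complexes fell. BRCA2, which acts at the resected end, was at 10.0, 9.37 and 9.25 TPM in NC and at 7.22, 7.77 and 7.29 TPM in shCKAP2L, a log2 fold change of -0.32 (SE 0.051, adjusted p = 4.1e-05). BARD1, the obligate partner of BRCA1, was at 12.7, 12.1 and 12.1 TPM in NC and at 9.82, 10.3 and 8.71 TPM in shCKAP2L, a log2 fold change of -0.33 (SE 0.055, adjusted p = 7.14e-05). The groups of both genes were apart. BRCA1 fell from 19.4 to 16.6 TPM (-0.22, adjusted p = 0.000377) and PALB2, the bridge between BRCA1 and BRCA2, from 27.0 to 25.1 TPM (-0.10, adjusted p = 0.0254). The PALB2 call was lost under several settings, among them median-of-ratios rescaling (-0.05, adjusted p = 0.177).

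The 5 paralogs divided: XRCC2, XRCC3 and RAD51C fell, and RAD51B and RAD51D rose. XRCC2 was at 41.4, 39.8 and 40.4 TPM in NC and at 31.5, 30.4 and 30.8 TPM in shCKAP2L, a log2 fold change of -0.38 (SE 0.033, adjusted p = 6.39e-08). XRCC3 was at 15.7, 15.7 and 15.1 TPM in NC and at 12.2, 12.5 and 11.9 TPM in shCKAP2L, a log2 fold change of -0.32 (SE 0.042, adjusted p = 5.06e-06). In neither gene did a knockdown library reach a control library.

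RAD51C fell from a mean of 20.4 to 17.3 TPM (-0.23, adjusted p = 8.18e-05). RAD51B was at 4.80, 5.35 and 4.67 TPM in NC and at 5.88, 6.36 and 5.92 TPM in shCKAP2L, with a log2 fold change of 0.25 (SE 0.060, adjusted p = 0.00181). RAD51D went from 7.02 to 7.70 TPM (0.12, adjusted p = 0.0486). The paralogs RAD51B, RAD51C, RAD51D and XRCC2 form 1 complex, so its genes went in both directions. RAD51C is shared with XRCC3 in a second complex, both of whose genes fell. The RAD51D call was lost when any RKO library but shCKAP2L replicate 1 was left out, with adjusted p-values of 0.0515 to 0.193.

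RAD54B, a DNA motor of strand exchange, was at 6.29, 5.43 and 5.25 TPM in NC and at 3.91, 3.71 and 3.62 TPM in shCKAP2L. Its log2 fold change of -0.49 (SE 0.067, adjusted p = 1.03e-05) was the lowest among the members, at a low level. NC replicate 1 was the highest library, and the groups did not overlap. RAD54L, the main RAD54 motor, fell from 28.8 to 24.1 TPM (-0.24, adjusted p = 0.000113), and RAD51AP1, an accessory factor of strand exchange, from 44.2 to 39.5 TPM (-0.15, adjusted p = 0.000865).

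**Figure D3:**
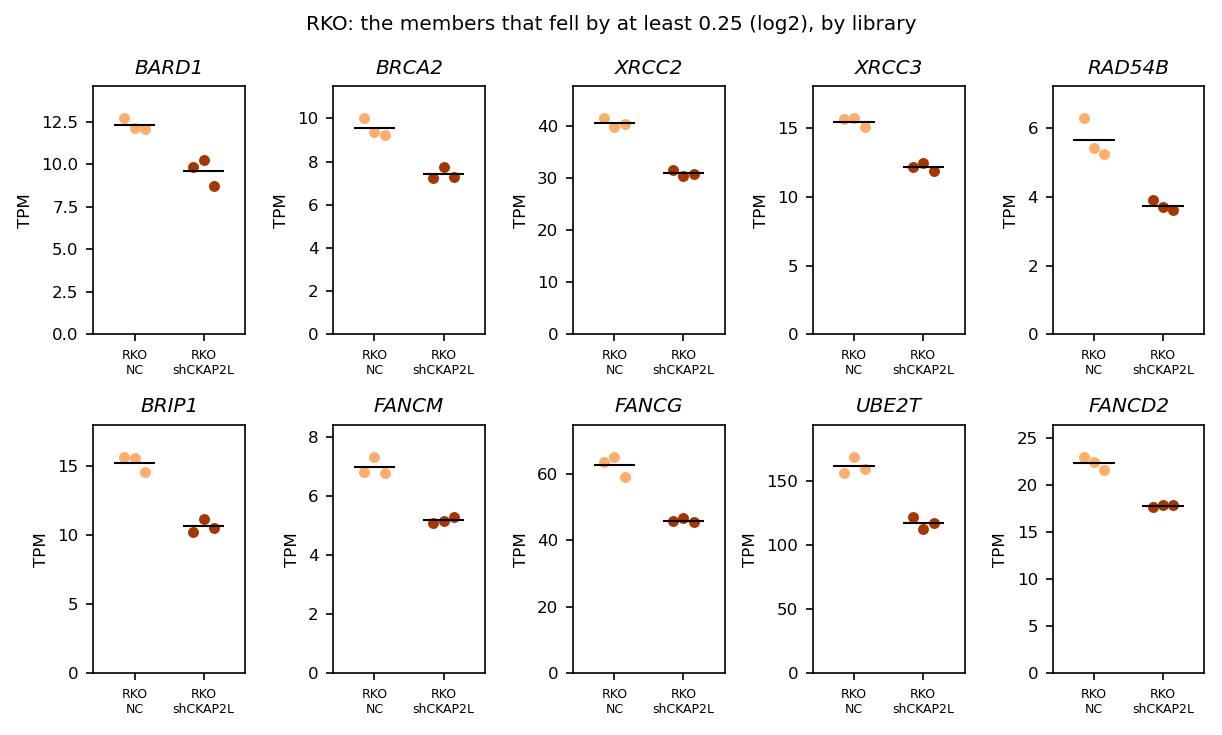
TPM in each RKO library (points, axes from 0) with the group mean (line) for the 10 members that fell by at least 0.25 on the log2 scale. In each of the 10, all 3 shCKAP2L libraries lie below all 3 NC libraries, from RAD54B (5.66 to 3.75 TPM on average) to UBE2T (162 to 117 TPM).

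Of the 8 genes of break sensing and checkpoint signalling, 2 rose and 1 fell. NBN, the regulatory subunit that brings the MRE11 complex to ATM, was at 56.3, 58.3 and 56.1 TPM in NC and at 66.4, 68.6 and 65.9 TPM in shCKAP2L. It rose by 0.23 (SE 0.030, adjusted p = 5.3e-06), and its groups did not overlap. Its partners did not pass the test: the nuclease MRE11 averaged 9.61 and 10.5 TPM (0.11, adjusted p = 0.0633) and RAD50 1.35 and 1.54 TPM (0.11, adjusted p = 0.219). RBBP8 averaged 35.4 and 34.0 TPM (adjusted p = 0.201). ATM, the kinase activated at breaks, rose from 11.5 to 12.8 TPM (0.15, adjusted p = 0.00897). Its effector CHEK2 fell from 13.4 to 11.7 TPM (-0.18, adjusted p = 0.0102), a call lost without NC replicate 3 (-0.13, adjusted p = 0.0546) or shCKAP2L replicate 1 (-0.14, adjusted p = 0.0541) and under median-of-ratios (-0.13, adjusted p = 0.0808) and quantile scaling (-0.15, adjusted p = 0.0519). ATR, the kinase of stalled forks (12.6 and 13.3 TPM, adjusted p = 0.228), and its effector CHEK1 (33.4 and 32.5 TPM, adjusted p = 0.347) did not pass.

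CKAP2L overexpression in HCT116 came with few calls in the module. NBN and CHEK1 rose (6.06% of the members), none fell, and 31 did not pass the test. Over all 12732 tested genes, 20.6% were called, 16.4% as higher and 4.26% as lower, and 4390 had an unadjusted p under 0.05. Under the 3 other scalings tried, 1102 to 1158 genes were higher and 959 to 1188 lower, with 1 member higher (NBN) and 1 or 2 lower. The median log2 fold change of the members was 0.08 against 0.05 over all tested genes, with 25 positive and 8 negative values. The groups did not overlap in 10 members (30.3%), against 37.3% of all tested genes. Summed TPM of the members was 640 to 672 in vector and 666 to 690 in CKAP2L.

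NBN was at 22.3, 22.3 and 23.1 TPM in HCT116 vector and at 27.9, 27.7 and 25.7 TPM in HCT116 CKAP2L, a log2 fold change of 0.25 (SE 0.049, adjusted p = 0.0028). CHEK1 was at 19.1, 20.7 and 20.6 TPM in vector and at 22.7, 23.3 and 21.9 TPM in CKAP2L, a log2 fold change of 0.16 (SE 0.052, adjusted p = 0.0394). Both genes were higher in every CKAP2L library than in every vector library. NBN passed in all 15 alternative settings. CHEK1 passed in 4 of 15, with adjusted p-values of 0.0272 to 0.155.

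The largest decrease in HCT116 was that of CHEK2, at 20.8, 20.8 and 18.1 TPM in vector and at 17.4, 17.4 and 18.03 TPM in CKAP2L (-0.16, SE 0.059, adjusted p = 0.0653). Vector replicate 3 lay close to the CKAP2L libraries, although the groups did not overlap. Without that library CHEK2 passed as lower (-0.23, adjusted p = 0.00612), and CHEK1, MRE11, NBN, RBBP8, BRCA1, RAD51AP1 and FANCL passed as higher, 7 members in place of 2. CHEK2 also passed as lower under the 3 other scalings tried (adjusted p = 0.0297 to 0.0414), and FANCE passed as lower under median-of-ratios (-0.15, adjusted p = 0.024) and quantile scaling (-0.15, adjusted p = 0.0223). The share of TPM in mitochondrially encoded genes was 28.0 to 28.6% in vector and 25.7 to 26.1% in CKAP2L, and 20.4 to 22.5% in RKO NC and 22.4 to 23.7% in shCKAP2L. This share was lower in CKAP2L without overlap in HCT116, and in RKO the shCKAP2L range lay higher but overlapped that of NC. Its part in the member changes was not tested. With TPM rescaled without mitochondrially encoded genes, CHEK1 was no longer called in HCT116 (0.12, adjusted p = 0.139). In RKO, PALB2 (-0.07, adjusted p = 0.0878) and BLM (-0.06, adjusted p = 0.143) were then no longer called.

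The HCT116 values of the members ran from -0.16 to 0.25, with 25 positive and 8 negative. UBE2T averaged 131 ± 3.4 and 126 ± 8.4 TPM (-0.05, adjusted p = 0.448), FANCD2 28.0 and 28.1 TPM (0.01, adjusted p = 0.937) and FANCI 49.98 and 50.5 TPM (0.01, adjusted p = 0.845). Among the members that fell most in RKO, FANCG (39.2 and 39.7 TPM), RAD54B (2.12 and 2.04 TPM) and FANCM (3.10 and 2.92 TPM) had adjusted p-values of 0.821, 0.887 and 0.685 in HCT116, and their groups overlapped. BRIP1 averaged 9.30 and 10.4 TPM (0.15, adjusted p = 0.116) and XRCC2 14.9 and 17.3 TPM (0.20, adjusted p = 0.0824). RAD51D averaged 4.18 and 4.95 TPM (0.20, adjusted p = 0.0939), and its groups did not overlap. RAD51AP1, BRCA1, MRE11 and ATM each had a value of 0.16 (adjusted p = 0.0623, 0.0895, 0.0647 and 0.147). A p above the threshold does not show that these levels were equal.

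**Figure D4:**
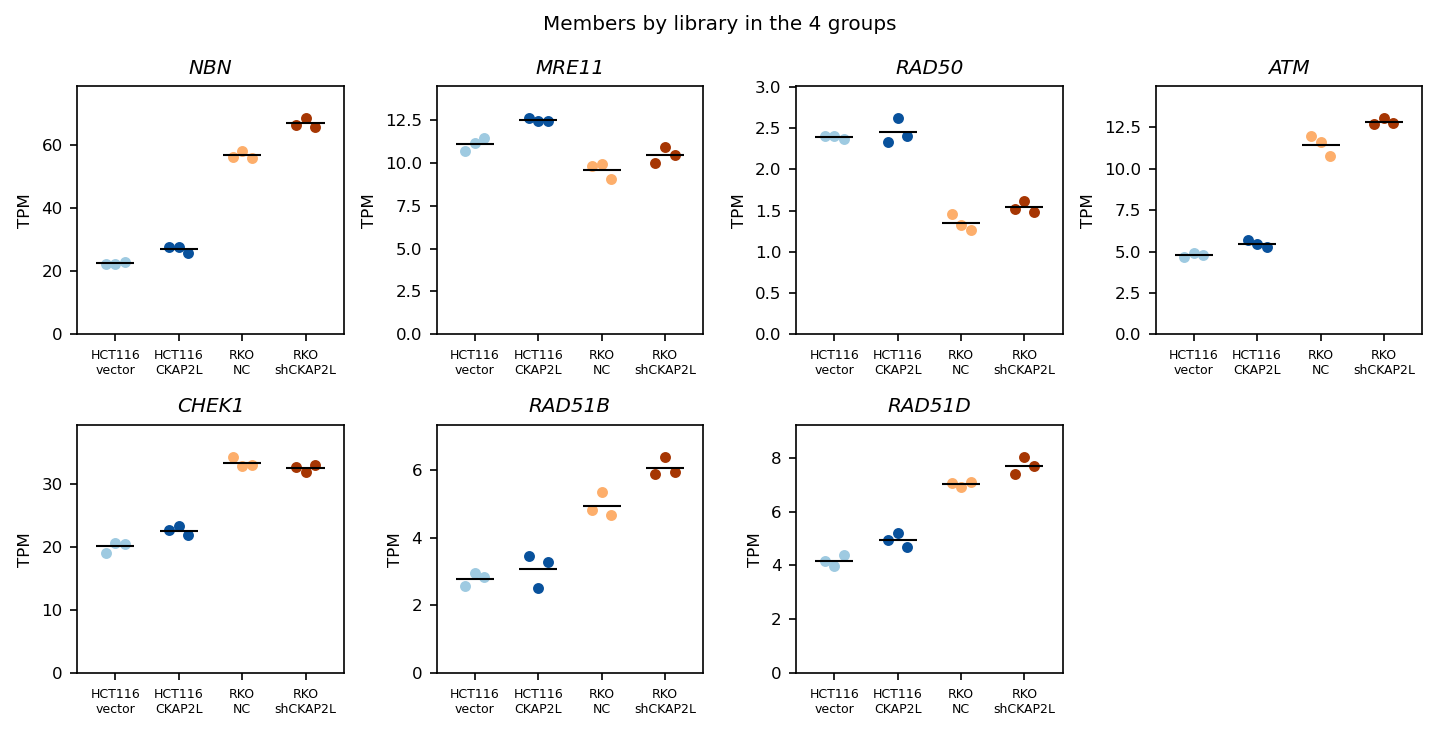
TPM in each library (points, axes from 0) with group means (lines) in the 4 groups, for the members that rose in a line and for the NBN partners MRE11 and RAD50. NBN is higher in every HCT116 CKAP2L library than in every vector library and higher in every RKO shCKAP2L library than in every NC library.

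NBN was called in both lines and rose in both, although CKAP2L was raised in one and lowered in the other. CHEK1 was called in HCT116 alone, 24 members in RKO alone and 7 in neither. A call in 1 line alone does not show a difference, so the change with higher CKAP2L was compared directly between the lines, as CKAP2L minus vector in HCT116 less NC minus shCKAP2L in RKO, in 1 limma fit over 12 libraries. CKAP2L itself changed by different amounts in the lines, and the contrast makes no allowance for that. Of the 33 members, 5 differed with a positive sign (15.2%), 14 with a negative sign (42.4%) and 14 did not pass, against 27.6% positive and 27.0% negative among 11024 genes tested in both lines. In either direction 57.6% of the members differed, near the 54.5% of all these genes. Line and kind of manipulation cannot be told apart in this contrast.

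The difference was largest for RAD54B (-0.51, SE 0.13, adjusted p = 0.00279) and UBE2T (-0.51, SE 0.061, adjusted p = 1.45e-06), which fell in RKO and had small values in HCT116. FANCM (-0.43, adjusted p = 0.00144), FANCG (-0.42, adjusted p = 2.28e-05), CHEK2 (-0.34, adjusted p = 0.00263) and BRIP1 (-0.33, adjusted p = 0.00109) followed. On the positive side were NBN (0.48, SE 0.053, adjusted p = 5.25e-07) and RAD51B (0.35, SE 0.12, adjusted p = 0.0202), whose values for treated against control cells were positive in both lines. MRE11, called in neither line, differed with a positive sign (0.27, SE 0.073, adjusted p = 0.00456). For BRCA1 (-0.06, adjusted p = 0.568), RAD51AP1 (0.01, adjusted p = 0.921) and BLM (0.00, adjusted p = 0.962) the contrast did not pass.

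Other genes of these pathways changed in both directions. Of 41 other homologous recombination genes, 20 fell and 6 rose in RKO (median -0.10), and 5 rose and 1 fell in HCT116 (median 0.05). In RKO 48.8% of them fell and 14.6% rose, against 42.1% and 26.4% of all tested genes. In HCT116 12.2% rose and 2.44% fell, against 16.4% and 4.26% of all tested genes. H2AX, the histone marked at breaks, fell from 412 to 267 TPM in RKO (-0.63, adjusted p = 8.48e-11) and RMI2, a partner of BLM, from 14.7 to 10.1 TPM (-0.51, adjusted p = 1.8e-07). BABAM2, a subunit of the BRCA1-A complex, rose from 15.5 to 30.8 TPM (0.94, adjusted p = 1.63e-11). In HCT116, NUCKS1 (0.27, adjusted p = 0.000499), a chromatin-associated recombination factor, TOP3A (0.21, adjusted p = 0.00851) and ZSWIM7 (0.22, adjusted p = 0.00885) rose, and the nuclease subunit EME1 fell (-0.26, adjusted p = 0.000896).

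Of the other Fanconi pathway genes, 9 of 17 tested fell and 4 rose in RKO (median -0.12), and 3 of 18 rose and 1 fell in HCT116 (median 0.07). SLX4 and SLX1A are in both this list and that of the other homologous recombination genes. In RKO 52.9% of them fell and 23.5% rose, against 42.1% and 26.4% of all tested genes. In HCT116 16.7% rose and 5.56% fell, against 16.4% and 4.26% of all tested genes. USP1, which removes ubiquitin from FANCD2 and FANCI, fell from 76.1 to 61.9 TPM in RKO (-0.29, adjusted p = 4.41e-07) and rose from 30.1 to 38.1 TPM in HCT116 (0.33, adjusted p = 0.000782). ERCC4, a nuclease that unhooks crosslinks, fell in RKO from 7.76 to 5.75 TPM (-0.38, adjusted p = 8.98e-06), as did MAD2L2 (-0.27, adjusted p = 7.15e-07) and RFWD3 (-0.21, adjusted p = 1.41e-05). In HCT116 CENPX fell (-0.24, adjusted p = 0.0023), while ERCC1 (0.15, adjusted p = 0.0342) and DCLRE1A (0.19, adjusted p = 0.036) rose.

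End joining is the competing route of break repair, and 7 of its 17 listed genes fell (41.2%) and 5 rose (29.4%) in RKO (median 0.01). These shares lay near the 42.1% and 26.4% of all genes tested in RKO. PRKDC fell from 142 to 90.9 TPM (-0.64, adjusted p = 9.71e-11), LIG4 from 28.0 to 18.4 TPM (-0.58, adjusted p = 2.63e-08) and POLQ from 18.04 to 14.0 TPM (-0.34, adjusted p = 3.57e-06), and PARP1 rose from 121 to 166 TPM (0.45, adjusted p = 8.23e-10). In HCT116 2 of 17 rose (11.8%, against 16.4% of all tested genes), LIG4 (0.25, adjusted p = 0.0219) and POLM (0.15, adjusted p = 0.045). Under median-of-ratios rescaling the end joining genes gave 8 higher and 7 lower in RKO, and the calls of POLM (adjusted p = 0.137), ERCC1 (0.258) and DCLRE1A (0.104) in HCT116 were lost. The other homologous recombination genes then gave 10 higher and 18 lower in RKO and 3 each way in HCT116, and the other Fanconi pathway genes 1 each way in HCT116. Under quantile scaling LIG4 (adjusted p = 0.0622) and ZSWIM7 (adjusted p = 0.0576) were lost in HCT116, and ZSWIM7 was also lost without CKAP2L replicate 1 (adjusted p = 0.056).

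Most genes of cell cycle progression fell in RKO, where most members fell too. There, 21 of 30 DNA replication genes fell and 2 rose (median -0.18), 11 of 18 E2F and G1/S regulators fell and 5 rose (median -0.16), and of 40 genes of G2/M and the spindle, 37 fell and 2 rose (median -0.39). Summed TPM of the G2/M and spindle list was 3591 to 3709 in NC and 2789 to 2841 in shCKAP2L. In HCT116, 17 of these 40 fell and 2 rose (median -0.11), 9 of 30 replication genes fell and 1 rose (median -0.08), and 2 of 18 G1/S regulators rose and 1 fell (median 0.02). Of 20 p53 damage response targets, 10 rose and none fell in HCT116 (median 0.17), and 3 rose and 10 fell in RKO (median -0.11). Over all tested genes, 42.1% fell and 26.4% rose in RKO, and 4.26% fell and 16.4% rose in HCT116. Under median-of-ratios rescaling, replication genes gave 18 lower and 5 higher in RKO, and 16 lower and 0 higher in HCT116. G1/S regulators gave 1 higher and 2 lower in HCT116. Over all 15 alternatives in HCT116, 8 to 24 G2/M and spindle genes and 3 to 16 replication genes were lower. The lowest replication count came with a constant prior variance, and without CKAP2L replicate 1, 2 or 3 the counts were 8, 11 and 9 G2/M and spindle genes and 4, 6 and 5 replication genes. The part of these lists in the member changes was not tested.

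**Figure D5:**
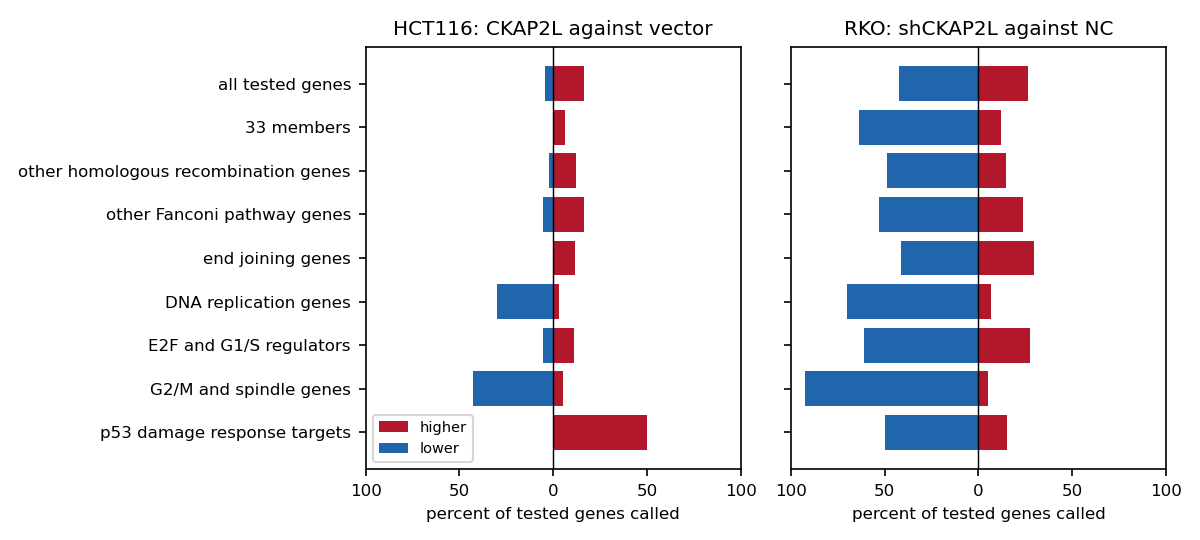
Percent of tested genes called higher (to the right of 0) and lower (to the left of 0) in each gene list and over all tested genes, in HCT116 and RKO. Of the members, 63.6% were lower and 12.1% higher in RKO, against 42.1% and 26.4% of all tested genes, and 6.06% were higher in HCT116 against 16.4%.

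Some members share exon bases with another gene in GENCODE 29, and how strand and multiply matching reads were handled is not stated in the labels. Such sharing was found for 19 members, in 16 of them with a gene on the opposite strand. The largest shares were those of RAD50 (79.7% of its exon bases, with the overlapping gene AC116366.3), XRCC3 (76.7%, with KLC1 on the opposite strand) and RAD54B (59.1%, with FSBP). Reads from these bases cannot be assigned with certainty, and the levels of RAD50, XRCC3 and RAD54B are uncertain for this reason. KLC1 averaged 8.13 and 8.23 TPM in RKO NC and shCKAP2L (adjusted p = 0.784), while XRCC3 fell. AC116366.3 and FSBP averaged 0.03 to 0.16 TPM in all groups. ZNF276, which shares 23.6% of the exon bases of FANCA on the opposite strand, fell in RKO as FANCA did, from 20.6 to 16.5 TPM (-0.31, adjusted p = 1.91e-05). LRRC41, which shares 25.1% of those of RAD54L on the opposite strand, rose in RKO (0.11, adjusted p = 0.0185) while RAD54L fell. VRK2, which shares 18.7% of those of FANCL, did not pass in RKO (adjusted p = 0.286). CHEK2, MRE11, RBBP8, RAD51AP1 and FANCD2 have at least 1 named pseudogene in the annotation, and their levels carry the same doubt.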

How the data were processed

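Per the labels' protocols, Trizol-extracted and DNase-treated RNA of 12 libraries was prepared with an mRNA kit. The tools named in the submitters' processing notes are HISAT2 2.0, bedtools 2.26.0, Trimmomatic 0.36 and FastQC 0.11.2, with build GRCh38. The authors deposited TPM values, 1 table per line, and no source used here names the counting tool or annotation. Gene IDs were matched to symbols for 19761 genes from a gene name table and 463 from GENCODE 29, and 39 had none. Each line was fitted alone with limma 3.58.1 (R 4.3.3) on log2(TPM + 1), over genes with a mean of at least 1 TPM, with a trended prior variance and Benjamini-Hochberg adjustment over all tested genes. The method was tested on simulated data. The line contrast used all 12 libraries. Alternatives were other pseudocounts, filters, scalings and variance priors, a replicate block, and leaving out each library.

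The members, gene lists and tests were chosen with earlier results of these data known. The naming rule covered CKAP2L and all 33 members, with every library's value for those called with a log2 change of at least 0.25, and up to 4 genes of each other list per line by smallest adjusted p. The promoter rule took members called in both lines outside chromosome 8, and NBN, the single member called in both, lies on chromosome 8. FANCA, CHEK1 and CHEK2 were given in full after their values were seen. RAD51B, whose change of 0.249 in RKO lies just under the limit of the rule, was also given in full. No list was given a test of its own.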

Additional observations from a re-analysis of the deposited data

Results flagged for a closer look

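For 19 of the 33 members the change with higher CKAP2L differed between the lines in the joint limma fit over 12 libraries (CKAP2L minus vector in HCT116, less NC minus shCKAP2L in RKO, log2 scale). This share of 57.6% lay near the 54.5% of all 11024 genes tested in both lines. Line and manipulation cannot be told apart in these values. The sign was positive, so that the change was higher in HCT116, for NBN (0.48, with 0.25 in HCT116 and -0.23 in RKO), RAD51B (0.35), RAD51D (0.32), ATM (0.31) and MRE11 (0.27). In these 5 genes the mean level was higher in treated than in control cells in both lines, and NBN alone passed the test in both.

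The sign was negative in the strand exchange motors RAD54B (-0.51) and RAD54L (-0.27), in the helicases FANCM (-0.43) and BRIP1 (-0.33), and in the paralogs XRCC3 (-0.26) and RAD51C (-0.24). It was negative in UBE2T (-0.51), FANCG (-0.42), FANCE (-0.22), FANCA (-0.19) and FANCD2 (-0.30) of the Fanconi pathway. It was also negative in BRCA2 (-0.25), BARD1 (-0.22) and the checkpoint kinase CHEK2 (-0.34). All 14 fell in RKO, and none passed the test in HCT116. BARD1, BRCA2, FANCA and RAD51B lost this call under at least 1 alternative setting.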

How the results depend on the processing

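Of the 25 members called in RKO, 20 were called in each of the 15 alternatives that tested them. RAD54B, 1 of these 20, was tested in 14. BLM, CHEK2, FANCE, PALB2 and RAD51D were lost in at least 1. No called member changed sign. Of the 2 called in HCT116, NBN held in all 15 and CHEK1 in 4. Of the 19 line differences, 15 held in every alternative that tested them. The cause of each change below was not tested.

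For the counts in HCT116, all genes gave 341 lower without a filter and 267 lower with a constant prior variance. Under median-of-ratios, quantile and mitochondria-free scaling they gave 1128, 1102 and 1158 higher and 1188, 1131 and 959 lower. Members higher were 1 without a filter, under each of the 3 scalings and with the replicate block, and members lower were 2, 2 and 1 under the scalings. The member median in HCT116 was 0.0284, 0.0104 and 0.0391 under the scalings. In RKO it was -0.1195, -0.1308 and -0.1432 under them and -0.1375 with a pseudocount of 5. The line difference had 3 members positive at a mean of at least 5 TPM, where fewer members were tested.

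Leaving out 1 library gave 1183 to 2851 genes higher and 296 to 577 lower in HCT116, 1 to 7 members higher and 0 to 1 lower, and an RKO member median of -0.1708 to -0.1423. The highest member count came without vector replicate 3.

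Values of members below the threshold changed sign in places. Under median-of-ratios scaling these were, in HCT116, ATR (-0.0273), RAD50 (-0.0186), PALB2 (-0.0285), FANCG (-0.0379), FANCD2 (-0.0498) and FANCI (-0.0434), and in RKO CHEK1 (0.0183) and FANCL (0.0521). Quantile scaling turned the same 6 in HCT116 (ATR -0.0427, RAD50 -0.0409, PALB2 -0.0437, FANCG -0.0368, FANCD2 -0.0548, FANCI -0.0348), CHEK1 (0.0253), RBBP8 (0.008), FANCL (0.0373) and FANCI (0.015) in RKO, and the RAD50 line difference (-0.012). Without mitochondrial genes they were ATR (-0.0181), RAD50 (-0.0119), PALB2 (-0.0189), FANCG (-0.0276), FANCD2 (-0.0398) and FANCI (-0.033) in HCT116, FANCL in RKO (0.0307) and the RAD51AP1 line difference (-0.0035, and -0.0019 with a pseudocount of 5). Leaving out 1 library gave, in HCT116, ATR -0.0129 to 0.0459, FANCA -0.0379 to 0.0379, FANCB -0.0011 to 0.1375, FANCD2 -0.0113 to 0.038, FANCG -0.0244 to 0.0585, FANCI -0.007 to 0.0459, PALB2 -0.0187 to 0.0713, RAD50 -0.0115 to 0.0488, RAD51C -0.0296 to 0.017 and RAD54B -0.1081 to 0.0844. FANCL in RKO ran from -0.0255 to 0.0318. Line differences ran from -0.0411 to 0.0458 for BLM, -0.1095 to 0.0291 for FANCB, -0.0551 to 0.0245 for FANCF and -0.0314 to 0.0632 for RAD51AP1.

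The replicate numbers gave no sign of pairing the libraries, with same-number correlations of -0.088 to -0.036 in HCT116 and -0.043 to 0.049 in RKO. With the replicate block, 1 member rose and 0 fell in HCT116, 3 rose and 20 fell in RKO, and the line difference held for 5 positive and 13 negative members. All genes split into 1761 higher and 439 lower in HCT116 and 3024 and 4837 in RKO. CHEK1 in HCT116 (adjusted p = 0.0659 by limma), RAD51D (0.0717) and BLM (0.0724) in RKO and the BRCA2 line difference (0.0564) were no longer called.

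Depth is unknown, so the precision of members at a few TPM cannot be given.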
